A study of Nannochloropsis oceanica with 12 samples.

Results

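The genes described here had a higher transcript level in M2 than in the wild type (WT) at both sampling times, in the unicellular marine alga Nannochloropsis oceanica IMET1. M2 is a line in which RNA interference lowers expression of the carbonic anhydrase CA2. Members were chosen from the FPKM values that the authors deposited, that is, fragment counts divided by transcript length and by the mapped total of the library. For each group the mean FPKM was taken, 1 was added, and the log2 value in WT was subtracted from that in M2. A gene is a member where this line difference was at least 0.45 at 24 h and at least 0.45 at 12 h, and where its mean reached 5 FPKM in any group. Of 9756 genes, 113 met the rule, which is 1.16%. The rule rests on measured M2 and WT levels, so the line differences below are a description and carry no test.

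The groups were M2 at 24 h, WT at 24 h, M2 at 12 h and WT at 12 h, each labelled with 3 biological replicates. All cultures, WT included, grew in continuous light with bubbled 5% CO2, were washed at mid-logarithmic phase and moved to fresh medium under the same 5% CO2 before sampling. M2 is a single knockdown line with no other control line than WT, so lowered CA2 and any other difference between the lines cannot be told apart. The labels do not give the ID of CA2, so the knockdown itself was not checked, and they name nuclear RNA as the molecule subtype although the source is whole cells.

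Carbonic anhydrases interconvert CO2 and bicarbonate. In algae they help to supply inorganic carbon to the carbon-fixing enzyme Rubisco, and their role is usually studied together with the carbon concentrating mechanism, which is more active when CO2 is scarce. Nannochloropsis species are known for their high content of storage lipid. RNA interference lowers a transcript through a matching small RNA and can leave part of it in place.

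The IDs of all 113 members name a scaffold and a number without any gene name. The reference table at hand holds 160 organelle genes and matched 0 of the 9756 IDs, so no role is given for any member, and pathway lists were not counted. By full ID, 4 members chosen by rule and 4 singled out after their values were seen are named, and a few others, also chosen after their values were seen, are placed by scaffold and number.

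Of the 12 labelled libraries 11 were distinct, and 10 of them entered the rule and the tests. The last M2 12 h column equalled 0.723 times M2 12 h replicate 1 within 0.1% for 9646 of 9647 genes above 0, and it was not used. WT 12 h replicate 3 stood apart: over all genes its log2(FPKM + 1) values correlated at 0.715 with both other WT 12 h libraries, whereas the lowest such correlation within groups of the 10 libraries was 0.992. The rule leaves it out, and unless it is named, 12 h values of WT below are those of replicates 1 and 2. FPKM sums of the 10 libraries lay between 606886 and 617319, and read depth is unknown. M2 12 h replicate 1 listed 109 genes at 0 and replicate 2 listed 43.

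Most line differences were moderate. At 24 h the median difference of the 113 members was 0.64 on the log2(mean FPKM + 1) scale, or 1.56-fold, with a range of 0.46 to 2.03. At 12 h it was 0.57, or 1.48-fold, with a range of 0.45 to 1.80. The medians over all 9271 genes that reached 5 FPKM in any group were 0.01 at 24 h and -0.04 at 12 h. A difference of at least 1, which is 2-fold on this scale, was seen for 13 members at 24 h, for 9 at 12 h and for 5 at both times.

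At 24 h, 536 of the 9271 genes met the 0.45 threshold, a background of 5.78%, and the members are 21.1% of these. At 12 h, 402 genes met it, a background of 4.34%, and the members are 28.1% of these. The mirrored thresholds gave 635 genes lower in M2 at both times. The member just inside the rule had differences of 0.510 at 24 h and 0.451 at 12 h, and the gene just outside had 0.446 at 24 h and 0.509 at 12 h. Within 0.05 of the threshold lay 32 members on the inside and 46 genes on the outside, so the edge of the list is not a gap in the data.

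**Figure D1:**
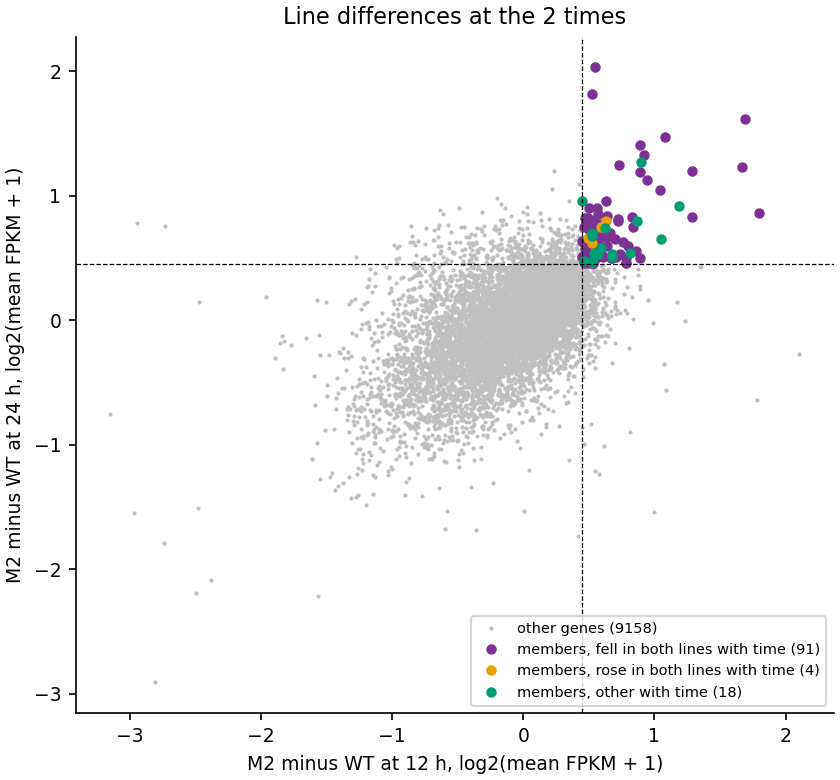
Each point is a gene that reached 5 FPKM in any group, with the M2 minus WT difference of log2(mean FPKM + 1) at 12 h on the x axis and at 24 h on the y axis. Dashed lines mark 0.45. The 113 members fill the upper right corner, and their colour gives the call for 24 h against 12 h: 91 fell in both lines, 4 rose in both lines, and 18 did neither.

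The replicates of the used libraries were close to each other for most members. At 24 h every M2 library lay above every WT library for 110 of 113 members, where the background over the 9271 genes was 34.5%. At 12 h the same held for 111 members with the used libraries, with a background of 32.6%, and for 92 with WT replicate 3 included, with a background of 26.8%. These counts follow in part from the rule. The 5 members whose used libraries overlapped at either time were of low level, with no group mean above 22.4 FPKM. On the log2(FPKM + 1) scale, the median range between replicates was 0.09 in M2 and 0.11 in WT at 24 h. At 12 h it was 0.07 in M2 and 0.08 in WT. These medians are below the 0.45 of the rule, but single members had a wider range. It exceeded 0.45 for 6 members in M2 and 6 in WT at 24 h, and for 3 in M2 and 6 in WT at 12 h.

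The median member lay above the median gene in M2 at both times and in WT at 12 h, and slightly below it in WT at 24 h. Members were chosen for M2 levels above those of WT, so these levels follow in part from the rule. Their median level was 40.8 FPKM in M2 and 22.3 FPKM in WT at 24 h, where the median of all genes was 24.7 FPKM in both lines. At 12 h their median was 61.5 FPKM in M2 and 37.4 FPKM in WT, with medians over all genes of 23.7 FPKM in M2 and 24.8 FPKM in WT. In M2 at 12 h 38.9% of members had at least 100 FPKM, against 11.2% of all genes. In M2 at 24 h 23% of members did, against 10.5% of all genes, and in WT at 12 h 23.9% did, against 11%. In WT at 24 h 14.2% of members did, close to 10.8% of all genes.

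Summed over the 113 members, the level at 24 h was 11969, 11955 and 11926 FPKM in the M2 libraries, against 7512, 7410 and 7446 FPKM in the WT libraries. At 12 h the sum was 19853 and 19669 FPKM in M2, against 12967 and 13040 FPKM in WT replicates 1 and 2 and 9772 FPKM in WT replicate 3. Sums of the used libraries differed by little within a group, and these groups did not overlap. With replicate 3 the WT 12 h sums spread widely, from below to above those of M2 at 24 h, and stayed below those of M2 at 12 h. As shares of all FPKM they were 1.97% in M2 and 1.21% in WT at 24 h, and 3.24% in M2 and 2.12% in WT at 12 h. In bulk RNA, fewer cells in a given state and less of a transcript per cell cannot be told apart.

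**Figure D2:**
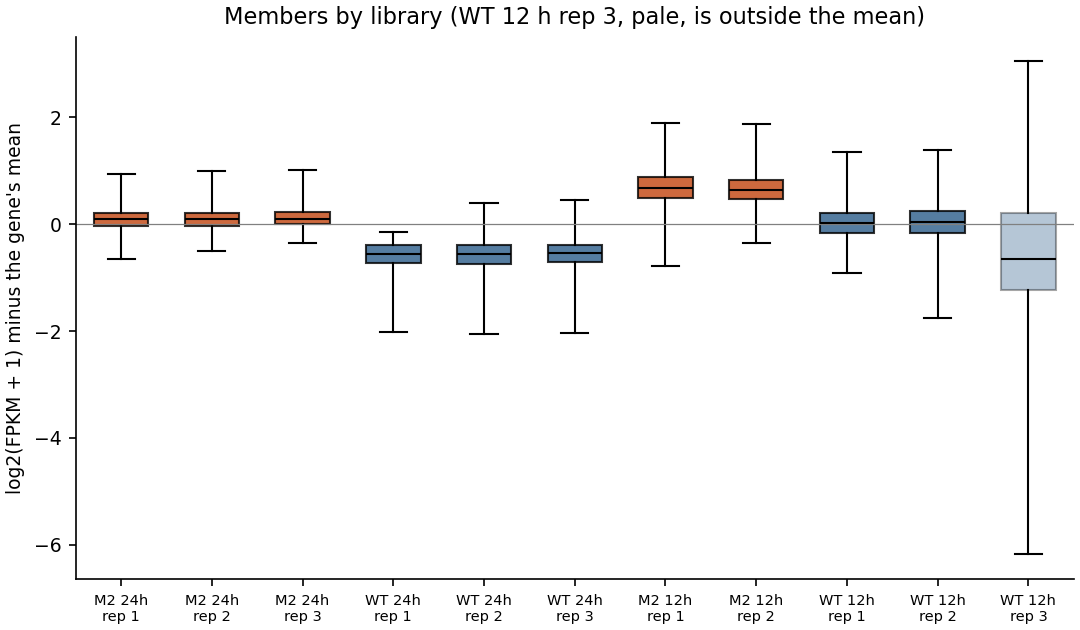
Each box gives the 113 members in 1 library as log2(FPKM + 1) minus the gene's mean over the 10 used libraries (box, quartiles; line, median; whiskers, full range), for M2 in orange and WT in blue. Medians were 0.10 in the 3 M2 24 h libraries, -0.56 to -0.53 in WT at 24 h, 0.63 and 0.67 in M2 at 12 h and 0.02 and 0.05 in WT 12 h replicates 1 and 2. The pale box is WT 12 h replicate 3, with a median of -0.65 and the widest spread.

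The sums did not rest on single genes, although 2 members were far more abundant than the rest. The most abundant, scaffold00009.g903, singled out after its values were seen, had 3358, 3345 and 3327 FPKM in M2 at 24 h, against 2256, 2223 and 2247 FPKM in WT at 24 h. The 12 h values were 4235 and 4220 FPKM in M2, against 3017 and 3036 FPKM in WT, with 2265 FPKM in WT replicate 3. Its replicates were tight, and no 2 groups of its used libraries overlapped. It made up 28% of the member sum in M2 and 30.1% in WT at 24 h, and 21.4% in M2 and 23.3% in WT at 12 h.

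The next most abundant, scaffold00341.g9878, also singled out, had 1016, 1042 and 1006 FPKM in M2 at 24 h, against 606, 574 and 577 FPKM in WT. Its 12 h libraries held 2416 and 2430 FPKM in M2, against 1703 and 1678 FPKM in WT, with 1964 FPKM in WT replicate 3. Every used M2 library lay above every WT library of its time. Without both genes the member sums were 7586 FPKM in M2 and 4628 FPKM in WT at 24 h, and 13111 FPKM in M2 and 8287 FPKM in WT at 12 h.

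The change with time was tested, since the rule does not use that contrast, although the same libraries entered the rule. The question is how the level at 24 h compares with that at 12 h within each line. The test was limma on log2(scaled FPKM + 1) over all 9579 genes with a mean of at least 1 FPKM, in 1 fit of the 4 groups, with Benjamini-Hochberg adjustment over all of them and a threshold of 0.05. All 113 members were tested. The 10 libraries of the rule were used, and 12 h groups had 2 libraries and 24 h groups 3. The labels speak of biological replicates of cultures, but the sampling scheme they describe has more times and CO2 levels than the libraries used here, so the p-values measure the spread between these libraries, which may be partly technical.

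Most members were lower at 24 h than at 12 h in both lines. In M2, 96 members fell, which is 85% of them, against a background of 35.2% of all genes tested, and 5 rose, against a background of 34.9%. In WT, 93 members fell, which is 82.3%, against a background of 33.0%, and 5 rose, against 33.1%. The median log2 change of the members was -0.62 in M2 and -0.52 in WT, whereas the medians over all genes were -0.01 in M2 and 0.00 in WT. Median standard errors of the members were 0.062 in both lines.

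Read across the lines, 91 members fell in both, which is 80.5% of them, against a background of 25.8%. Only 4 rose in both, where 25.0% of all genes did. Among the other 18, 5 fell in M2 with no call in WT, 2 fell in WT with no call in M2, 1 rose in M2 with no call in WT, 1 rose in WT with no call in M2, and 9 had no call in either line. No member (0) was called in opposite directions in the lines (limma, and 0 at an unadjusted p under 0.05), as were 248 of all genes tested. Such calls were rare among all genes, with 1.36% that fell in M2 and rose in WT and 1.23% the reverse. The rule keeps both line differences on the same side of 0, which leaves less room for opposite calls, so this count is a description. The 9 without a call had no group mean above 22.4 FPKM and log2 changes between -0.47 and 0.15. For comparison, of the 635 genes lower in M2 at both times, 75.7% rose and 4.41% fell in M2, and 64.6% rose and 9.45% fell in WT.

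**Figure D3:**
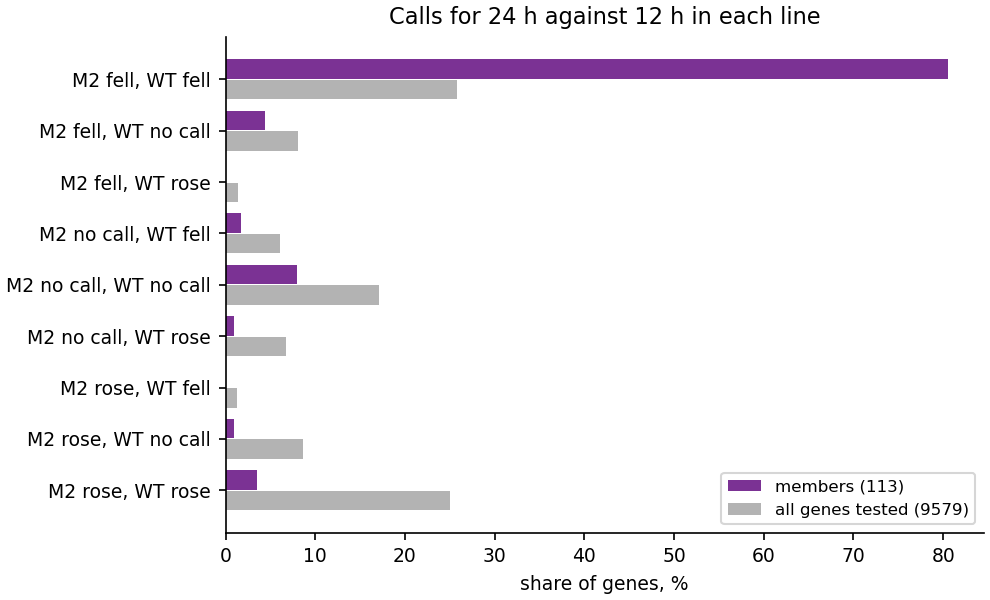
Bars give the share of genes with each pair of calls for 24 h against 12 h (limma, adjusted p under 0.05), for the 113 members in purple and all 9579 genes tested in grey. The purple bar for a fall in both lines reaches 80.5% and the grey one 25.8%, and for a rise in both lines the bars stand at 3.54% and 25.0%.

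Large falls were frequent among the members. At least 2-fold falls in both lines were called for 22 members, or 19.5%, against a background of 0.616% of all genes, and the members were 37.3% of the 59 genes with such falls. From 10 FPKM up, the share that fell in both lines was higher at higher levels, among all genes too. Members and other genes with a mean under 10 FPKM are not in the bands given here. With a mean over the groups of 10 to 30 FPKM, 66.7% of 33 members fell in both lines, against 20.6% of all genes of that level. From 30 to 100 FPKM it was 90.5% of 42 members against 35%, and from 100 FPKM up it was 100% of 27 members against 46.6%.

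**Figure D4:**
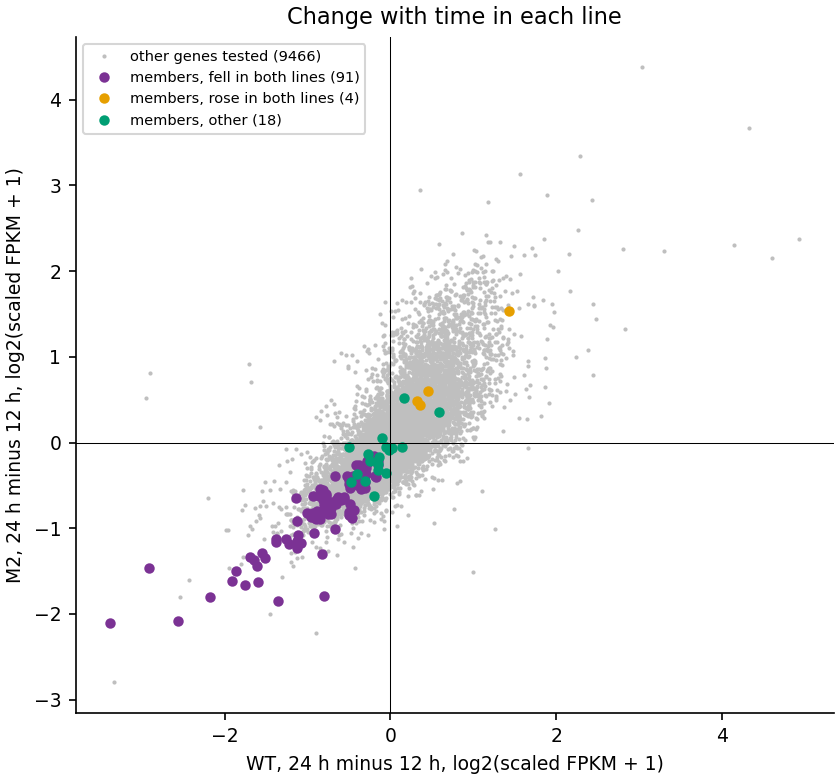
Each point is a tested gene, with the log2 change from 12 h to 24 h in WT on the x axis and in M2 on the y axis, on the scale of log2(scaled FPKM + 1). Most members lie to the lower left of 0, 91 of them with a called fall in both lines, down to -2.11 in M2 and -3.38 in WT, and the 4 that rose in both reach 1.53 in M2 and 1.43 in WT.

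The third WT 12 h library bears on these counts through its own level and through the shared estimate of spread. With it in the fit, 41 members fell in M2, against a background of 6.95%, and 2 rose, against 8.14%. In WT 42 fell, against 8.42%, and 2 rose, against 7.51%. Of the 91 members that fell in both lines 36 then kept both calls. No call turned round (0 in M2 and 0 in WT, limma, and likewise 0 and 0 at an unadjusted p under 0.05), and the median standard error of the members was 0.241 in M2 and 0.215 in WT, several times that without the library. Estimated log2 changes were below 0 in both lines for 90 members with this library and for 104 without it. Without it 40.7% of all genes were below 0 in both lines. With it no such share is at hand, nor one for the genes that kept both calls.

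The line difference and the fall with time together set the order of the groups. In 54 members the group means ran, from high to low, M2 12 h, M2 24 h, WT 12 h, WT 24 h, an order found in 6.39% of the 9271 genes. In 49 members WT 12 h lay above M2 24 h, with the order M2 12 h, WT 12 h, M2 24 h, WT 24 h, found in 15.4% of the genes. M2 at 12 h was thus the highest group for 106 members, and WT at 24 h was the lowest for 104. The rule allows only some orders, so these counts are given without a reading against the genes at large.

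The rule does not set M2 at 24 h against WT at 12 h. Their difference had a median of 0.06 over the members on the log2(mean FPKM + 1) scale, and -0.02 over the 9271 genes. Of the 91 members that fell in both lines, all 3 M2 24 h libraries lay below both WT 12 h libraries in 36 and above both in 28, and in the others they overlapped. Median log2 falls of these 91 were -0.71 in M2 and -0.73 in WT. The larger estimated fall was in WT for 49 and in M2 for 42 of the 91. No such counts over all genes are at hand, so those among the 91 are a description.

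Among members that fell in both lines, scaffold00127.g4290 had the largest line difference by the smaller of its values, 1.62 at 24 h and 1.69 at 12 h. At 24 h it had 59.9, 58.7 and 60.1 FPKM in M2, against 18.3, 17.7 and 20 FPKM in WT. The M2 libraries at 12 h held 129 and 134 FPKM, against 38.2 and 42 FPKM in WT replicates 1 and 2. M2 was about 3.19 times WT at 24 h and 3.28 times WT at 12 h, with no overlap, and M2 at 24 h lay above WT at 12 h. With time it fell by 1.18 on the log2 scale in M2 (SE 0.06, limma adjusted p = 8.8e-09) and by 1.08 in WT (SE 0.06, limma adjusted p = 2e-08). Replicate 3 of WT at 12 h stood at 98.9 FPKM, between the other WT libraries and M2, and with it in the fit the change was -1.17 in M2 (limma adjusted p = 0.12) and -1.63 in WT (limma adjusted p = 0.022).

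Next by the same rule was scaffold00088.g3280, with line differences of 1.23 at 24 h and 1.67 at 12 h. Its values at 24 h were 34.6, 38.6 and 43 FPKM in M2, against 15.3, 16.1 and 16.3 FPKM in WT. At 12 h they were 98.2 and 88.1 FPKM in M2, against 27.2 and 29.8 FPKM in WT replicates 1 and 2. The used libraries of the lines did not overlap at either time. WT 12 h replicate 3 had 195 FPKM, above both M2 libraries, so the 12 h line difference of this gene rests on leaving that library out. Over time the log2 change was -1.30 in M2 (SE 0.08, limma adjusted p = 9.2e-08) and -0.82 in WT (SE 0.08, limma adjusted p = 5.3e-06). With the library the calls were lost, at -1.29 in M2 (limma adjusted p = 0.37) and -1.85 in WT (limma adjusted p = 0.13).

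All 5 members with line differences of at least 1 at both times, which include these, fell in both lines. Their differences ran from 1.05 to 1.62 at 24 h and from 1.04 to 1.69 at 12 h. Mean levels at 24 h were 13.2 to 158 FPKM in M2 and 5.16 to 60.3 FPKM in WT. At 12 h they were 23.5 to 385 FPKM in M2 and 9.01 to 182 FPKM in WT. Changes with time ran from -1.33 to -0.84 in M2 and from -1.69 to -0.72 in WT on the log2 scale. WT 12 h replicate 3 lay below both M2 12 h libraries for 3 of them and above both for 2.

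Of the 4 members that rose in both lines, scaffold00009.g448 had the largest line difference, 0.80 at 24 h and 0.63 at 12 h. At 24 h it had 43.3, 47 and 44.7 FPKM in M2, against 25.4, 25.4 and 25.3 FPKM in WT. At 12 h it had 29.4 and 27.2 FPKM in M2, against 18.9 and 17 FPKM in WT, and 16.1 FPKM in WT replicate 3. No library of M2 overlapped with WT at either time, replicate 3 included. It rose with time by 0.61 on the log2 scale in M2 (SE 0.06, limma adjusted p = 4.3e-06) and by 0.46 in WT (SE 0.06, limma adjusted p = 4.8e-05), and both calls held with WT 12 h replicate 3 (limma adjusted p = 0.0071 in M2 and 0.029 in WT).

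The next, scaffold00127.g4193, was among the least abundant members. At 24 h it had 5.48, 5.73 and 5.84 FPKM in M2, against 1.91, 3.44 and 3.6 FPKM in WT. At 12 h it had 0.955 and 1.63 FPKM in M2, while WT replicate 1 had 1.04 FPKM and WT replicates 2 and 3 listed it at 0. Its libraries overlapped at 12 h and not at 24 h. Among its group means only that of M2 at 24 h, 5.68 FPKM, reached the 5 FPKM of the rule. Its rise in M2 is therefore tied in part to its selection. The log2 change with time was 1.53 in M2 (SE 0.28, limma adjusted p = 0.00049) and 1.43 in WT (SE 0.28, limma adjusted p = 0.00088), and at such levels the added 1 FPKM shapes both this value and the line difference. With 5 FPKM added it was 0.76 in M2 and 0.52 in WT, with 0.1 FPKM added 3.11 in WT, and with quantile normalization 0.96 in M2. Without WT 12 h replicate 2, which listed the gene at 0, it was 0.92 in WT (limma adjusted p = 0.012), and the calls held under each of these settings. No group mean of the 4 rising members exceeded 45 FPKM.

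**Figure D5:**
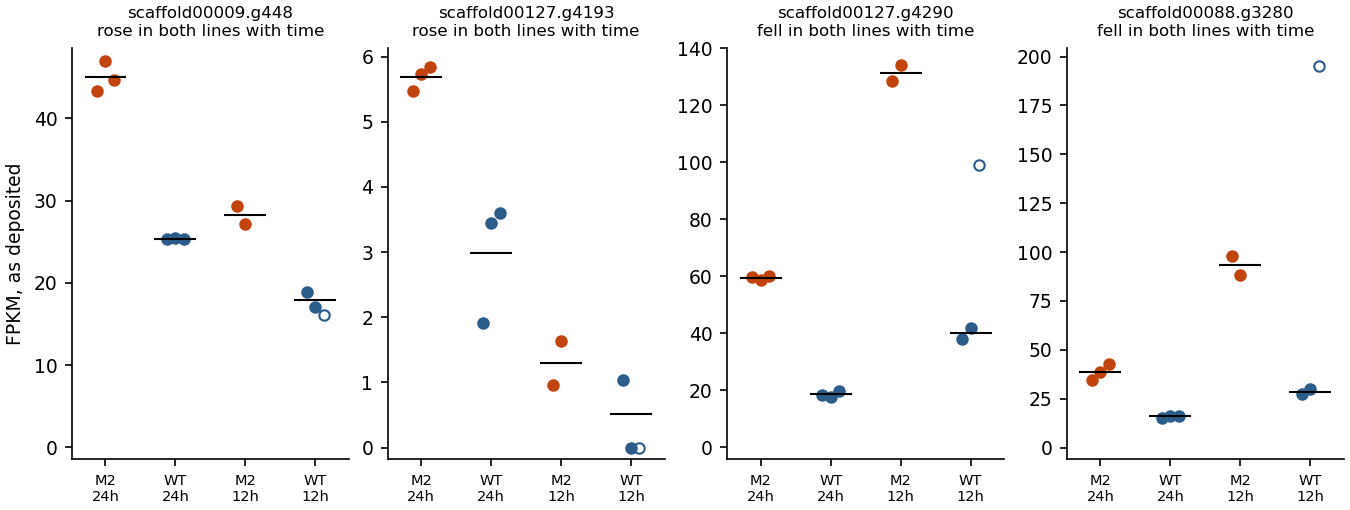
Dots are FPKM as deposited in each library for the 4 members named by rule, M2 in orange and WT in blue, with the mean of the used libraries as a line and WT 12 h replicate 3 as an open circle. The pair on the left is higher at 24 h than at 12 h and the pair on the right lower, and the open circle of scaffold00088.g3280 at 195 FPKM lies above both M2 12 h dots.

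Some members differed much more between the lines at 1 of the times. By at least 0.45 the difference was larger at 24 h for 5 members and larger at 12 h for 2. The largest difference at 24 h belonged to scaffold00145.g5108, singled out after its values were seen, at 2.03, with 0.55 at 12 h. It had 59.3, 49.4 and 60.6 FPKM in M2 at 24 h, against 13.8, 13.9 and 11.5 FPKM in WT. Values at 12 h were 157 and 146 FPKM in M2, against 101 and 105 FPKM in WT, and 64.6 FPKM in WT replicate 3. The groups were thus apart at both times, and further apart at 24 h.

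The largest difference at 12 h, 1.80, belonged to scaffold00247.g6938, likewise singled out, with 0.86 at 24 h. At 24 h it had 15.1, 13.7 and 13.4 FPKM in M2, against 7.07, 8.47 and 6.41 FPKM in WT. At 12 h it had 45.7 and 53.6 FPKM in M2, against 10.9 and 16.1 FPKM in WT, and 23.5 FPKM in WT replicate 3. Within each time every M2 library lay above every WT library, replicate 3 included. Its log2 change with time was -1.80 in M2 (SE 0.15, limma adjusted p = 5.9e-07) and -0.81 in WT (SE 0.15, limma adjusted p = 0.00046), without replicate 3.

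The IDs show where members sit close together by number, as far as consecutive numbers on a scaffold mark neighbouring genes, which the files do not state. Members came from 44 of the 283 scaffolds, with at most 9 on 1 scaffold. A total of 14 members, or 12.4%, had another member at the next number, in 7 pairs. No such share for randomly placed genes is at hand, so this count is a description. The 191 other genes at the next numbers had median line differences of 0.03 at 24 h and 0.07 at 12 h. Of them 56.5% were higher in M2 at each time. Over the 9271 genes that reached 5 FPKM in any group, 51.6% were at 24 h and 45.3% at 12 h. The 191 genes were not held to that level, so the sets differ. Since the libraries carry no strand, 2 genes that overlap on opposite strands can share reads.

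The densest run lay on scaffold00341. Among 6143 windows of 9 consecutive numbers, the one from 9764 to 9772 held 5 members, the most of any, and 5566 windows held none. Its 4 other genes were also higher in M2, with differences of 0.32 to 0.69 at 24 h and 0.27 to 0.64 at 12 h. The member at 9771 had mean levels of 158 FPKM in M2 and 56.3 FPKM in WT at 24 h, and 385 FPKM in M2 and 182 FPKM in WT at 12 h. At 9769 the means were lower, 16.8 FPKM in M2 and 9.05 FPKM in WT at 24 h, and 61.2 FPKM in M2 and 24.4 FPKM in WT at 12 h. Levels in the run thus differed widely. The run was picked for its number of members, so its shared direction follows in part from the rule. Just outside it, the gene at 9763 had differences of -0.69 at 24 h and -0.37 at 12 h. The gene at 9773 had 0.12 at 24 h and 0.21 at 12 h.

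On scaffold00145 the members at 5108 and 5109 shared their pattern. Line differences were 2.03 and 1.82 at 24 h and 0.55 and 0.52 at 12 h, and both fell steeply with time, with log2 changes of -1.46 and -2.11 in M2 and -2.91 and -3.38 in WT. Not all pairs moved alike: on scaffold00080 the member at 2617 had log2 changes with time of -2.08 in M2 and -2.57 in WT, and its neighbour at 2618 had -0.14 in M2 and -0.26 in WT. Whether paired members share reads was not tested.

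WT 12 h replicate 3, which did not enter the rule, was the only further WT library at hand. It lay below both M2 12 h libraries for 93 members, or 82.3% of them, where the background over the 9271 genes was 59.5%. It lay above both for 17 members, or 15% of them, with a background of 37.2%, and between them for 3. The difference of mean M2 at 12 h from this library had a median of 1.27 over the members and 0.42 over the 9271 genes. Over the members it ranged from -2.66 to 7.35 and was at least 0.45 for 87 of them. This library listed 5 members at 0, for which the mean of the other WT 12 h libraries was 0.52 to 114 FPKM. The M2 12 h libraries set against it did enter the rule, so these shares and differences follow in part from the rule. A comparison with 1 library that stands apart has no replicate check.

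The authors' merged values, 1 column for each group, held the 24 h difference but not all of the 12 h one. They are described as merged data of the same groups, and the rule used all 3 libraries of both 24 h groups. The merged 24 h values therefore follow largely from the rule and are no second check. In the authors' merged 24 h columns all 113 members differed by at least 0.45, with a median of 0.63. In the authors' merged 12 h columns 32 members did, with a median of 0.22, and 39 members were lower in M2 than in WT. Over the 9271 genes the medians were 0.01 in the merged 24 h columns and -0.01 in the merged 12 h columns. For scaffold00127.g4290 the authors' merged 12 h values were 113 FPKM in M2 and 54.3 FPKM in WT. For scaffold00088.g3280 they were 43.3 FPKM in M2 and 81.2 FPKM in WT, so this gene had opposite directions in the merged and in the replicate columns. How the columns were merged is not given in the sources used here, and the cause of the gap at 12 h was not tested.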

How the data were processed

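Polyadenylated RNA was made into unstranded paired-end libraries, per the labels' protocols. The authors deposited FPKM values, in 1 table for each group and 2 tables of merged values. The submitters' processing notes name TopHat2 (version 2.0.4) and Cufflinks (version 2.0.2). The genome build and annotation, and whether the tables were normalized jointly, were not given in the sources used here. Every comparison therefore sets separately deposited tables side by side. The M2 24 h headers write MT and were assigned by the table's link to that group.

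Levels are FPKM as deposited, and the rule used them unscaled. For the time test, libraries were scaled by median-of-ratios factors over 9615 genes (0.965 to 1.023), and log2(scaled FPKM + 1) was fitted with limma 3.58.1 in R 4.3.3, 2-sided, with an intensity trend and no replicate block. The added 1 understates changes of low genes. The fit was tested on simulated data. Tables and figures used Python 3.11.15, numpy 2.4.6, pandas 2.3.3 and matplotlib 3.10.9. The named members are the 2 that rose and the 2 that fell in both lines with the highest smaller line difference. The members, the libraries left out, the tests and the lists were chosen with earlier results of these data known. Alternatives covered pseudocounts, filters, scalings, a replicate block, smaller fits, no trend, the library left out and each library in turn.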

Additional observations from a re-analysis of the deposited data

Results flagged for a closer look

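WT 12 h replicate 3, which entered neither the rule nor the tests, held 17 members at a level above both M2 12 h libraries, which is 15% of them, where the share over the 9271 genes was 37.2%. In WT 12 h replicates 1 and 2 it was 0 members each, a count that the rule all but fixes. The difference was not tested, since this is 1 library. Both M2 12 h libraries entered the rule, so the 15% follows in part from the rule too.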

How the results depend on the processing

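Without a library at a time, the number of members was 106 to 128, and 74 members met the rule whichever library was left out. It was 70 with a pseudocount of 5, 223 with WT 12 h replicate 3 in the mean (93 of the 113 among them) and 187 with the authors' merged columns (32 of the 113 among them), and 148 with median-of-ratios scaling. In the time test, members that fell numbered 96 in M2 and 93 in WT, and 41 in M2 and 42 in WT with WT 12 h replicate 3, where the standard errors were larger. Leaving out a library gave 92 to 97 falls in M2 and 86 to 93 in WT, and 4 to 6 rises in M2 and 3 to 5 in WT. Where that left 1 library in a 12 h group, it was assumed to vary like the other groups. Without a 24 h library, 33.1% to 34.4% of all genes tested fell in M2 and 31% to 32.9% in WT. Rises then made up 32.8% to 34.6% of them in M2 and 30.7% to 32.6% in WT. The 5 rises in M2 became 3 with quantile normalization and 2 with WT 12 h replicate 3. The 5 rises in WT became 3 with a pseudocount of 5, with a filter at 5 FPKM, with quantile normalization and with no intensity trend, and 2 with WT 12 h replicate 3. The cause of these lower counts was not tested. Of all genes tested, 29.3% rose in M2 with quantile normalization and 8.14% with WT 12 h replicate 3. In WT 31.4% to 33.3% rose under the other settings named and 7.51% with that replicate. With the replicate block, 97 members fell and 5 rose in M2, and 91 fell and 4 rose in WT. Of all genes tested, 34% fell and 33.7% rose in M2 with the block, and 32% fell and 31.8% rose in WT. Deviations of same-numbered libraries from their group means correlated between -0.04 and 0.03, so no shared deviation by number was seen. With 2 used libraries in each 12 h group, these values cannot tell whether the cultures were paired by design. No time change of the 4 members named by rule turned its sign under any setting run. The 12 h line difference did for some members: with WT 12 h replicate 3 in the mean 7 members were lower in M2 than in WT, and in the authors' merged 12 h columns 39 were. Precision at low levels is limited by an unknown read depth.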
